A study of Mus musculus with 8 samples.

Results

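Vasoactive receptor and cGMP signalling genes are described here as 10 genes of the vascular contraction and relaxation pathway, picked by name and not by their values. They are Rgs5, Rgs4, Rgs2, Ednra, Ednrb, Agtr1a, Prkg1, Gucy1b1, Pde5a and Pde3a, and each is the row of that symbol among the 27249 genes of the deposited expression table. Polyadenylated RNA was sequenced from primary vascular smooth muscle cells of the mouse, which make up the contractile layer of arteries, in 4 groups of 2 libraries. The groups were cells overexpressing THOC5 in osteogenic medium, cells overexpressing green fluorescent protein (GFP) in osteogenic medium, THOC5 cells in growth medium and GFP cells in growth medium. THOC5 is a subunit of the THO complex, which couples transcription to mRNA export, and GFP served as the control protein. The labels give the genotype of the GFP cells as WT, and the series design names inorganic phosphate for 6 days as the osteogenic treatment. The labels do not say that the libraries of a group came from separate cultures, so the spread behind the p-values is that between libraries and may be technical.

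Contraction of arterial smooth muscle is set by hormone receptors on the cell surface and by cyclic nucleotides inside the cell. Endothelin and angiotensin receptors couple to G proteins that raise calcium, and RGS proteins shorten such signals by speeding GTP hydrolysis on the G protein alpha subunit. Nitric oxide activates soluble guanylate cyclase, the cGMP it makes activates cGMP-dependent protein kinase, and the kinase promotes relaxation until phosphodiesterases break cGMP down.

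The libraries held 7058681 to 10581042 reads and 21217 to 22482 detected genes. Thoc5 had 1780.2 and 1937 normalized counts in THOC5 cells in osteogenic medium against 650 and 615 in GFP cells in that medium, and 2155 and 1406 with THOC5 in growth medium against 458 and 471 in GFP cells in that medium. The 2 libraries of GFP cells in osteogenic medium stood apart, with Pearson correlations across genes of 0.929 to 0.961 to the 6 other libraries, whereas those 6 had correlations of at least 0.987 among themselves. Of the smooth muscle markers, Acta2 had 10972 to 26199 reads per library and Cnn1 613 to 1762, while Myh11 had 38 to 165 and Myocd 9 to 19. The 8 markers summed to 11996 and 13901 normalized counts in GFP cells in osteogenic medium, against 25076 to 32188 in the other libraries. Markers of other cell types were in part present, and their sums did not all fall in GFP cells in osteogenic medium. Adipocyte markers summed to 451 and 465 normalized counts in those libraries, above the 358 to 412 of the other libraries. Without Lpl, their most abundant gene, the adipocyte sums overlapped, at 242 and 243 against 203 to 244. Macrophage markers, at 458 and 476 against 390 to 498, and melanocyte markers, at 124 and 154 against 137 to 185, overlapped. Schwann cell markers were sparse, at 20.8 and 24.1 against 27.7 to 46.5. Of 6 endothelial markers, Eng had up to 1168 reads in a library, Vwf up to 110, Kdr up to 29, Pecam1 up to 14, Tek up to 10 and Tie1 at most 1. The 6 summed to 776 and 832 normalized counts in GFP cells in osteogenic medium against 945 to 1149 in the other libraries, but Eng alone gave 87.7% to 95.3% of that sum. Without Eng the sums were 36.7 and 55.4 against 75.8 to 121. Vwf had 14 and 11 reads in GFP cells in osteogenic medium against 44 to 110 in the other libraries, whereas Kdr had 29 and 23 against 3 to 9. Of 11 pericyte markers, Pdgfrb had up to 7983 reads, Notch3 up to 526, Mcam up to 308, Anpep up to 214, Ndufa4l2 up to 86 and Cspg4 up to 29, while Kcnj8, Abcc9, Higd1b, Cox4i2 and Vtn had at most 3.

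Values below are normalized counts, which are reads divided by the authors' size factor of the library, and changes are log2 differences of the normalized count plus 1 with their standard error. Tests are limma's moderated test in 1 fit over the 22575 genes with at least 1 normalized count in at least 2 libraries, with Benjamini-Hochberg adjustment over those genes and a threshold of 0.05. All 10 members were among the genes tested.

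In GFP cells, Rgs5, Rgs4, Prkg1 and Pde3a were 2.39-fold to 3.80-fold lower in osteogenic than in growth medium, and Ednra was 1.44-fold lower. In osteogenic medium these 5 genes were 1.58-fold to 3.69-fold higher in THOC5 than in GFP cells. Rgs2 and Pde5a differed by less than the test could call in each comparison, and Gucy1b1, Agtr1a and Ednrb were too sparse for a firm statement. No member was called between media in THOC5 cells, or between THOC5 and GFP cells in growth medium.

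**Figure D1:**
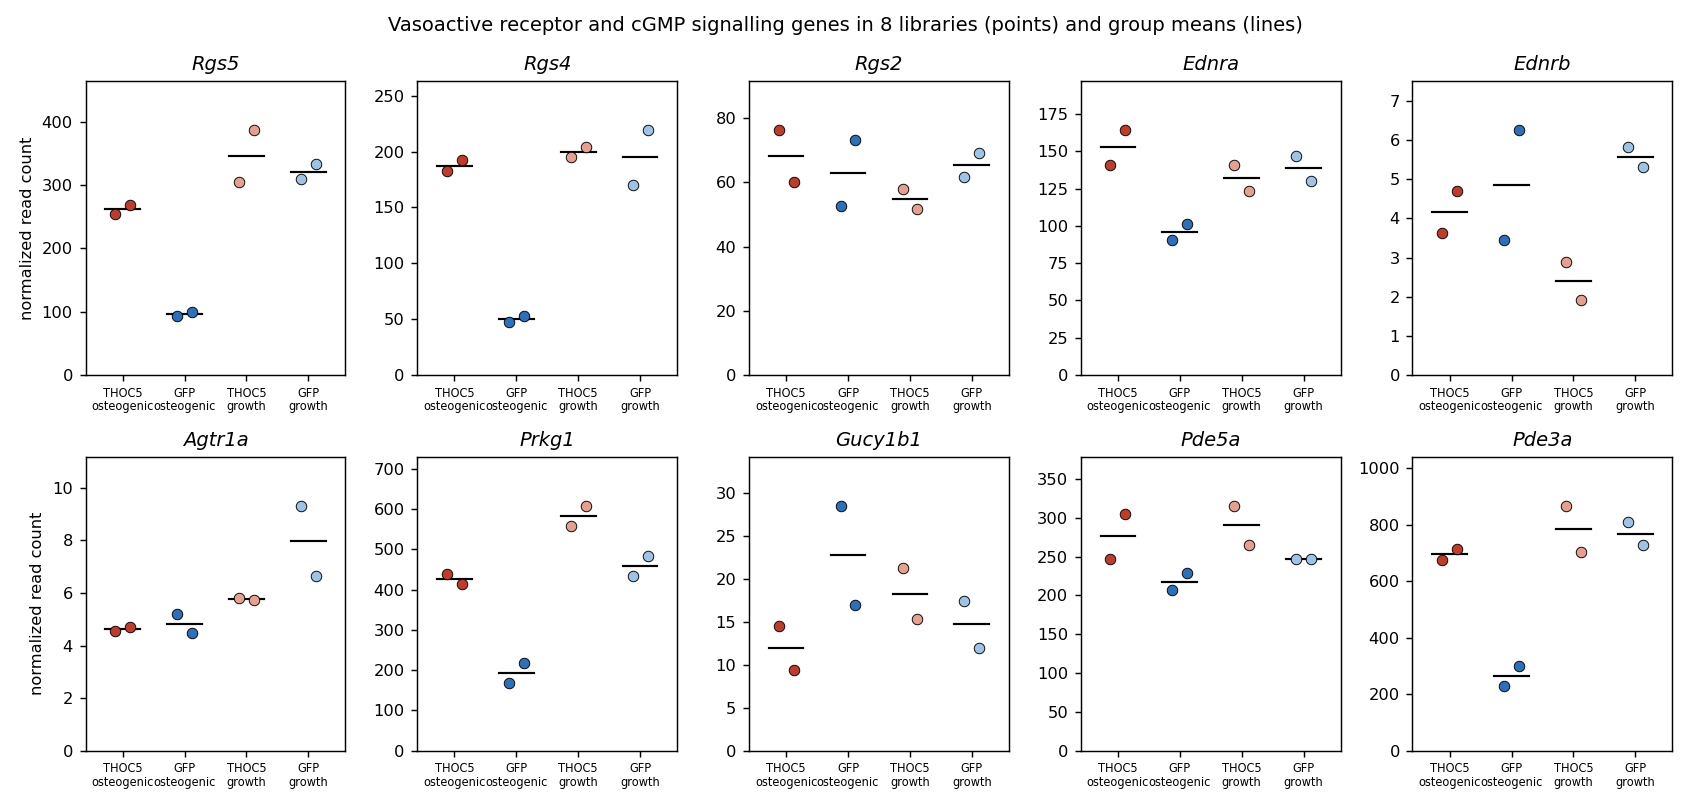
Normalized read count (y axis, from 0) of each of the 10 genes in the 8 libraries; points are libraries, horizontal lines are group means, and the groups are THOC5 cells in osteogenic medium, GFP cells in osteogenic medium, THOC5 cells in growth medium and GFP cells in growth medium. For Rgs5, Rgs4, Prkg1, Pde3a and Ednra both GFP osteogenic libraries lie below the other 6 libraries, as they do for Pde5a, where the gap is small.

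In GFP cells, 5 of the 10 genes fell in osteogenic medium against growth medium, where 10.6% of all genes tested fell, and 0 rose, where 10.3% rose (20.8% in either direction). No member was higher in osteogenic medium in GFP cells at an unadjusted p under 0.05, or with edgeR or DESeq2. The members' median log2 change was -0.57, against 0 over all genes tested. Counted without a test, the libraries of the 2 media did not overlap and were lower in osteogenic medium for 7 members, the 5 called ones with Agtr1a and Pde5a, against 28.9% of all genes, and they were higher for 0, against 27.7%. In osteogenic medium 5 of 10 were higher in THOC5 than in GFP cells, against 11.3% of all genes, and 0 were lower, against 10.7% (22.0% in either direction), and 0 were lower at an unadjusted p under 0.05 or with edgeR or DESeq2. The members' median in that comparison was 0.50, against 0 over all genes. Libraries did not overlap for 6 members with THOC5 cells higher, against 30.8% of all genes, and for Gucy1b1 with THOC5 cells lower, against 28.6%. The GFP osteogenic libraries enter both comparisons, so the comparisons are not independent and the members' values are given side by side below. In the comparisons of the authors' deposited table, 4 members passed an adjusted p of 0.05 in the GFP medium response and 5 in THOC5 against GFP cells in osteogenic medium. Those are the genes called here, except that Ednra has an adjusted p of 0.0839 for the GFP medium response in the authors' deposited table.

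**Figure D2:**
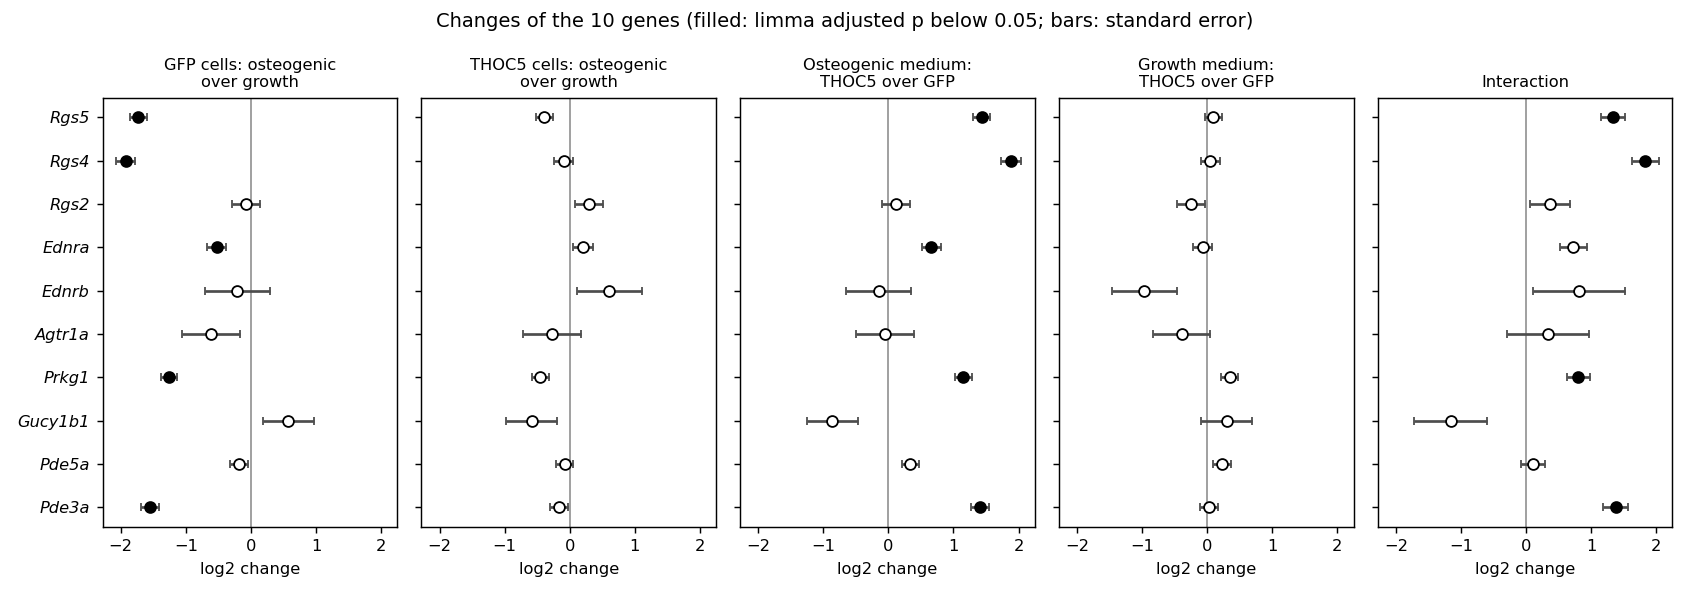
Log2 change with standard error (x axis) of the 10 genes (rows) in the 5 contrasts (panels); filled points passed an adjusted p of 0.05. Rgs5, Rgs4, Ednra, Prkg1 and Pde3a are filled left of 0 in the GFP medium response and right of 0 in THOC5 against GFP cells in osteogenic medium, and the panels for THOC5 cells between media and for growth medium hold open points only.

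Rgs5 and Rgs4, both small RGS proteins that act on Gi and Gq alpha subunits, lie next to each other on chromosome 1 of GRCm38. Rgs5, on the plus strand at chr1:169655501-169695813, ends 45663 bases before Rgs4, on the minus strand at chr1:169741477-169747642. Rgs2, a related gene whose protein acts mainly on Gq and is known to be activated by cGMP-dependent kinase, is on the same chromosome at chr1:143999338-144004161, minus strand. The 250 bases before the RefSeq start of each of the 3 genes are shown because the neighbouring pair moved together and Rgs2 did not pass the test. RefSeq promoter windows of the GRCm38.p6 build were found for 8 of the 10 members, not for Agtr1a and Pde3a. Capitals mark the motifs searched on both strands: TGACG and the longer cAMP response element TGACGTCA that contains it, TATAAA, and the CArG box, the site of serum response factor. The windows are chr1:169655251-169655500 (plus strand), chr1:169747643-169747892 (minus strand) and chr1:144004150-144004399 (minus strand).
Rgs5: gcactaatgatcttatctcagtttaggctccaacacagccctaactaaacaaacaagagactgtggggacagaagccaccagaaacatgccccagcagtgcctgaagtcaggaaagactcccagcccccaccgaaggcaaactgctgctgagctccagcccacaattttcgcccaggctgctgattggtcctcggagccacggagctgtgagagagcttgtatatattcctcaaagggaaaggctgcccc
Rgs4: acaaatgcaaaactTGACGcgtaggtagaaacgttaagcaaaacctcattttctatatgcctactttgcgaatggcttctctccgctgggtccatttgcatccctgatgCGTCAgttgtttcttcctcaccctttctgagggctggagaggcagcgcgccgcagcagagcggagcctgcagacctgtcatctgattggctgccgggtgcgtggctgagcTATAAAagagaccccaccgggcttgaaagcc
Rgs2: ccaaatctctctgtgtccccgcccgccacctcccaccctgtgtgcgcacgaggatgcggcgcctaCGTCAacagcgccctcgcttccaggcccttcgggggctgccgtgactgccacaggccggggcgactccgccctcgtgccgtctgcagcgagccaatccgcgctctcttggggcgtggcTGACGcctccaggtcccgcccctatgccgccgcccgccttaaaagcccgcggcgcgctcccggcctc
Over 32851 RefSeq windows of 300 bases, which add 50 bases after the start, TATAAA was present in 13.6%, TGACG in 20.8%, TGACGTCA in 1.79% and the CArG box in 1.63%. Rgs4 had TATAAA at bases 31 to 26 before the start and TGACG at bases 236 to 232, with its reverse complement at bases 141 to 137. Rgs2 had TGACG at bases 67 to 63 and its reverse complement at bases 185 to 181. None of these letters was in the Rgs5 window, and neither TGACGTCA nor the CArG box was in the window of any of the 8 members. The Rgs2 stretch held 30 CpG and 72.4% G and C, the Rgs4 stretch 13 CpG and 53.6%, and the Rgs5 stretch 4 CpG and 53.6%. The median over all windows was 52.4% G and C in the 250 bases before the start.

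Rgs5 had 254 and 268 normalized counts in THOC5 osteogenic libraries, 92.5 and 99.3 in GFP osteogenic libraries, 304 and 387 in THOC5 growth libraries, and 309 and 334 in GFP growth libraries. The GFP osteogenic libraries were the lowest pair and overlapped with no other group. Rgs5 averaged 95.9 ± 4.77 normalized counts in osteogenic and 321 ± 17.6 in growth medium in GFP cells (SD, n = 2 each), a log2 change of -1.73 ± 0.13, or 3.32-fold lower (limma adjusted p = 1.053e-05). In osteogenic medium it was 2.71-fold higher in THOC5 than in GFP cells, with a log2 difference of 1.44 ± 0.13 (limma adjusted p = 2.783e-05). Rgs5 is also used as a pericyte marker, and in bulk RNA fewer cells of a type and less RNA per cell cannot be told apart. The 11 pericyte markers of a separate list summed to 3179 and 3989 normalized counts in GFP osteogenic libraries against 6967 to 8630 in the other 6, but Pdgfrb alone gave 74.6% to 89.3% of that sum. Without Pdgfrb the sums were 807 and 830.0 in GFP osteogenic libraries against 923 to 1126. Of the 9 tested markers Pdgfrb, Ndufa4l2 and Mcam were lower in GFP cells in osteogenic than in growth medium, by 1.23, 2.24 and 0.37 on the log2 scale, whereas Notch3, Cspg4 and Anpep, at -0.33, -0.53 and -0.13, were not called. Of the smooth muscle markers 7 of 8 were lower in that comparison. The adventitial fibroblast list summed to 10007 and 12472 in GFP osteogenic libraries against 20675 to 24826 in the others (6232 and 7020 against 8485 to 10657 without Dcn, its most abundant gene), with 3 of 9 genes lower. The part of these marker differences in the members' changes was not tested.

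Rgs4 had 183 and 192 normalized counts in THOC5 osteogenic libraries, 47.6 and 52.8 in GFP osteogenic libraries, 195 and 204 in THOC5 growth libraries, and 170.1 and 219 in GFP growth libraries. Here too only the GFP osteogenic libraries were low, and the 3 other groups overlapped or lay close together. Its change in GFP cells between osteogenic and growth medium was -1.93 ± 0.15, or 3.80-fold lower (limma adjusted p = 1.18e-05), rank 209 from the lowest of the 22575 genes tested, where Rgs5 had rank 336. THOC5 cells in osteogenic medium had 3.69-fold more Rgs4 than GFP cells, with a log2 difference of 1.88 ± 0.15 (limma adjusted p = 1.263e-05). Both calls of Rgs5 and Rgs4 were kept under all 19 other settings tried, with the highest adjusted p at 0.0145.

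Rgs2 had 76.3 and 60.1 normalized counts in THOC5 osteogenic libraries, 52.8 and 73.3 in GFP osteogenic libraries, 57.9 and 51.6 in THOC5 growth libraries, and 61.8 and 69.1 in GFP growth libraries. These ranges overlap between most groups, and Rgs2 passed the test in no comparison. Its log2 change in GFP cells between osteogenic and growth medium was -0.07 ± 0.22, with a 95% confidence interval of -0.54 to 0.40 (limma adjusted p = 0.873). Between THOC5 and GFP cells in osteogenic medium it was 0.12 ± 0.22, with an interval of -0.35 to 0.59 (limma adjusted p = 0.756).

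Ednra, the endothelin A receptor that mediates most of endothelin's contraction of arterial muscle, is at chr8:77663031-77724464 on the minus strand. It had 141 and 164 normalized counts in THOC5 osteogenic libraries, 90.8 and 101 in GFP osteogenic libraries, 141 and 123 in THOC5 growth libraries, and 147 and 130.3 in GFP growth libraries. As with the RGS pair, the GFP osteogenic libraries were below all others, by a smaller margin. The log2 change in GFP cells between osteogenic and growth medium was -0.53 ± 0.15 (limma adjusted p = 0.0267), and the log2 difference between THOC5 and GFP cells in osteogenic medium was 0.66 ± 0.15 (limma adjusted p = 0.00793). The Ednra call in the GFP response was lost when libraries were scaled to their totals (adjusted p = 0.0835), with DESeq2 (0.0802), without limma's variance trend (0.0865) and when the fit held the 4 compared libraries alone (0.0637). It was also lost without GFP osteogenic replicate 1 (0.165) or 2 (0.0540) or GFP growth replicate 1 (0.134), and the osteogenic call of Ednra was lost without THOC5 osteogenic replicate 2 (0.104), without GFP osteogenic replicate 1 (0.0724) or without the variance trend (0.0529).

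Ednrb, the endothelin B receptor, which in arteries is found mainly on endothelium, had 4 and 5 reads in THOC5 osteogenic libraries, 4 and 7 in GFP osteogenic libraries, 3 and 2 in THOC5 growth libraries, and 5 and 4 in GFP growth libraries. Agtr1a, the main angiotensin II receptor of mouse arteries, had 5 and 5 reads in THOC5 osteogenic libraries, 6 and 5 in GFP osteogenic libraries, 6 and 6 in THOC5 growth libraries, and 8 and 5 in GFP growth libraries. Both receptors were thus close to the 3 reads that a count of 0 allows, and no difference between groups was detectable at this depth. Their log2 changes in GFP cells between osteogenic and growth medium were -0.21 ± 0.50 for Ednrb and -0.61 ± 0.45 for Agtr1a (limma adjusted p = 0.829 and 0.393).

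Gucy1b1 encodes the beta subunit of soluble guanylate cyclase, the nitric oxide receptor. It had 14.5 and 9.39 normalized counts in THOC5 osteogenic libraries, 28.5 and 17.0 in GFP osteogenic libraries, 21.2 and 15.3 in THOC5 growth libraries, and 17.5 and 11.96 in GFP growth libraries. This was the only one of the 10 genes whose GFP osteogenic mean was the highest of the 4 groups, but the libraries rest on 9 to 33 reads each and the 2 media overlapped in GFP cells. Its change in GFP cells between osteogenic and growth medium was 0.57 ± 0.39 (limma adjusted p = 0.358), and its difference between THOC5 and GFP cells in osteogenic medium was -0.86 ± 0.39, with a 95% confidence interval of -1.73 to 0.01 (limma adjusted p = 0.157). Of the cyclase alpha subunits, which pair with it, Gucy1a2 averaged 12.4 normalized counts per kb of exon over all libraries and Gucy1a1 0.477, and neither was called in any comparison.

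Prkg1, the cGMP-dependent protein kinase that carries most of the cGMP signal in smooth muscle, spans chr19:30564489-31765033. It had 439.8 and 414 normalized counts in THOC5 osteogenic libraries, 169 and 217 in GFP osteogenic libraries, 558 and 608 in THOC5 growth libraries, and 435 and 484 in GFP growth libraries. The GFP osteogenic libraries were the lowest and the THOC5 growth libraries the highest, and neither pair overlapped with another group. Prkg1 averaged 193 ± 34.4 normalized counts in osteogenic and 459 ± 34.8 in growth medium in GFP cells (SD, n = 2 each), a log2 change of -1.26 ± 0.13, or 2.39-fold lower (limma adjusted p = 6.041e-05). In osteogenic medium it was 2.22-fold higher in THOC5 than in GFP cells, with a log2 difference of 1.15 ± 0.13 (limma adjusted p = 9.94e-05).

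Pde3a encodes a phosphodiesterase that hydrolyses cAMP and is inhibited by cGMP, and Pde5a the cGMP-specific enzyme that sildenafil inhibits. Pde3a had 677 and 715 normalized counts in THOC5 osteogenic libraries, 229 and 299 in GFP osteogenic libraries, 868 and 704 in THOC5 growth libraries, and 809.9 and 728 in GFP growth libraries. The GFP osteogenic libraries were far below the other 6, which lay between 677 and 868. The log2 change of Pde3a in GFP cells between osteogenic and growth medium was -1.55 ± 0.14, or 2.93-fold lower (limma adjusted p = 2.688e-05), and THOC5 cells in osteogenic medium were 2.65-fold above GFP cells, at 1.41 ± 0.14 (limma adjusted p = 4.368e-05). The calls of Prkg1 and Pde3a in both comparisons were kept under all 19 other settings, with the highest adjusted p at 0.0223.

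Pde5a had 247 and 305 normalized counts in THOC5 osteogenic libraries, 207 and 229 in GFP osteogenic libraries, 316 and 265 in THOC5 growth libraries, and 247 and 247 in GFP growth libraries. The GFP osteogenic libraries were again the lowest, but the gap was small and no comparison passed the test. Its log2 change in GFP cells between osteogenic and growth medium was -0.18 ± 0.13, with a 95% confidence interval of -0.47 to 0.11 (limma adjusted p = 0.388), and its difference between THOC5 and GFP cells in osteogenic medium was 0.33 ± 0.13, with an interval of 0.04 to 0.63 (limma adjusted p = 0.101). Per kb of exon, the Pde3a level was 2.11 and 1.81 times the Pde5a level in THOC5 osteogenic libraries, 0.856 and 1.01 times in GFP osteogenic libraries, 2.12 and 2.05 times in THOC5 growth libraries, and 2.53 and 2.27 times in GFP growth libraries. The balance of the 2 enzymes' transcripts was therefore lowest in the GFP osteogenic pair, which overlapped with no other group. The annotation places exons of other genes on the opposite strand over 741 exon bases of Pde3a, 91 of Ednra and 55 of Pde5a, and the library kit does not mark strand, so reads there cannot be separated.

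In THOC5 cells, osteogenic against growth medium gave 0 called members with limma, edgeR and DESeq2. Over all genes tested limma called 0.532% higher and 0.00886% lower (0.540% in all). At an unadjusted p under 0.05 there were 2 members, Rgs5 and Prkg1, against 5.68% of all genes. Rgs5 had a log2 change of -0.39 ± 0.13, with a 95% confidence interval of -0.68 to -0.10 (limma adjusted p = 0.674), and Prkg1 one of -0.45 ± 0.13, with an interval of -0.73 to -0.17 (limma adjusted p = 0.425). Rgs4 was at -0.09 ± 0.15 and Pde3a at -0.17 ± 0.14, with intervals of -0.42 to 0.24 and -0.47 to 0.13. Libraries of THOC5 cells did not overlap between media, with osteogenic medium lower, for Rgs5, Rgs4, Agtr1a, Prkg1 and Gucy1b1, against 19.7% of all genes, and with osteogenic medium higher for Rgs2 and Ednrb, against 15.1%. The median over the members was -0.13, against -0.01 over all genes.

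In growth medium, THOC5 against GFP cells gave 0 called members with limma, edgeR and DESeq2, where limma called 0.00443% of all genes higher, which is Thoc5 alone, and 0% lower. Prkg1 was the only member at an unadjusted p under 0.05, against 5.10% of all genes, with a log2 difference of 0.34 ± 0.13 and a 95% confidence interval of 0.07 to 0.62 (limma adjusted p = 0.906). Rgs5, Rgs4, Ednra and Pde3a had log2 differences between -0.07 and 0.10. Libraries did not overlap for Prkg1 and Pde5a with THOC5 cells higher, against 14.7% of all genes, and for Rgs2, Ednrb and Agtr1a with THOC5 cells lower, against 16.5%.

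The interaction, which is the medium response of THOC5 cells minus that of GFP cells, tests whether the responses differed. It was called above 0 for 4 of the 10 genes, against 5.30% of all genes, and below 0 for 0, against 3.92% (9.22% in either direction), with 0 below 0 at an unadjusted p under 0.05, or with edgeR or DESeq2. It reached 1.84 ± 0.21 for Rgs4 (limma adjusted p = 0.000793), 1.34 ± 0.18 for Rgs5 (limma adjusted p = 0.00175), 1.38 ± 0.19 for Pde3a (limma adjusted p = 0.00188) and 0.81 ± 0.18 for Prkg1 (limma adjusted p = 0.0175). Ednra, at 0.73 ± 0.21, missed the threshold (limma adjusted p = 0.0521) and passed it with edgeR on the recovered reads (adjusted p = 0.0341) and over genes with a mean of at least 10 (limma adjusted p = 0.0300). Rgs4 kept its interaction under all 18 other settings. The interaction of Prkg1 lost its call without the variance trend (adjusted p = 0.162), without the filter on low values (0.0600), and without either THOC5 osteogenic replicate (0.0988 and 0.0979), GFP osteogenic replicate 1 (0.0683), THOC5 growth replicate 1 (0.0829) or GFP growth replicate 2 (0.0645). Without the variance trend Rgs5 and Pde3a were lost too (0.0800 and 0.0958).

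Per kb of exon the levels of the 10 genes could be set against each other. In THOC5 cells in osteogenic medium the order was Rgs4 (60.5 ± 2.23), Rgs5 (57.5 ± 2.18) and Pde3a (54.7 ± 2.12 normalized counts per kb, SD, n = 2), of which each overlapped with the next. Prkg1 followed at 39.3 ± 1.68, then Pde5a at 28.1 ± 4.16 and Ednra at 27.9 ± 3.02, which overlapped, and Rgs2 at 18.8 ± 3.17. In GFP cells in osteogenic medium the first 7 genes lay between 22.2 ± 1.60 for Pde5a and 16.2 ± 1.19 for Rgs4, and each overlapped with its neighbour in the order. Rgs4 was thus first of the 10 in THOC5 and the seventh in GFP cells of the same medium. In growth medium the order began with Rgs5 in both kinds of cell, at 76.0 ± 12.9 in THOC5 cells and 70.7 ± 3.86 in GFP cells. Gucy1b1, Agtr1a and Ednrb closed the order in every group, with at most 5.80 ± 2.08 per kb for Gucy1b1, 2.87 ± 0.68 for Agtr1a and 1.31 ± 0.08 for Ednrb.

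**Figure D3:**
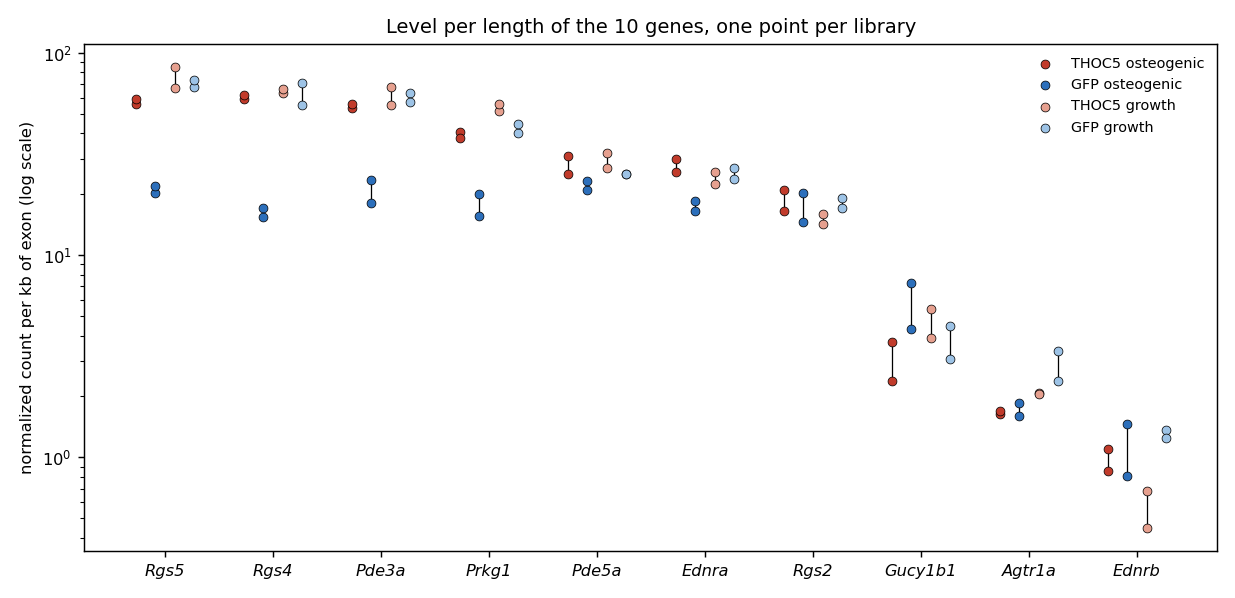
Normalized count per kb of union exon (y axis, log scale) of the 10 genes; points are libraries, the line joins the 2 libraries of a group, and colours are THOC5 osteogenic, GFP osteogenic, THOC5 growth and GFP growth. In GFP osteogenic libraries 7 genes share a band from 14.5 to 23.5 per kb, while in the other groups Rgs5, Rgs4 and Pde3a lie above 50.

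Around the 10 genes, 4 lists of 123 other genes of the pathway were examined, of which 106 were tested. In GFP cells 26 of them fell (24.5%) and 8 rose (7.55%) in osteogenic against growth medium, against 10.6% and 10.3% of all genes. In osteogenic medium 27 were higher (25.5%) and 8 lower (7.55%) in THOC5 than in GFP cells, against 11.3% and 10.7% of all genes. limma called 0 of the 106 between media in THOC5 cells, with 5 of the 106 at an unadjusted p under 0.05, against 5.68% of all genes. It called 0 between THOC5 and GFP cells in growth medium, with 11 of the 106 at an unadjusted p under 0.05, a larger share than the 5.10% of all genes. The interaction was called above 0 for 15 of them (14.2%) and below 0 for 5 (4.72%), against 5.30% and 3.92% of all genes.

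Receptors and ligands other than the members fell in 16 of 55 cases and rose in 2 in the GFP medium response, with a median log2 change of -0.33. Of all genes 10.6% fell and 10.3% rose there. Avpr1a, the vasopressin receptor of vascular smooth muscle, had 247 and 235 normalized counts in THOC5 osteogenic libraries, 17.3 and 35.8 in GFP osteogenic libraries, 291 and 327 in THOC5 growth libraries, and 225 and 210.0 in GFP growth libraries. It fell by 3.07 ± 0.25 on the log2 scale in GFP cells in osteogenic against growth medium (limma adjusted p = 1.726e-05) and was 3.22 ± 0.25 higher in THOC5 than in GFP cells in osteogenic medium (limma adjusted p = 1.174e-05). Ptger3, a prostaglandin E2 receptor, Bdkrb1, the bradykinin B1 receptor, and Agt, the angiotensin precursor, had log2 changes of -1.86 ± 0.14, -1.54 ± 0.28 and -2.38 ± 0.45 and were called lower as well. The last 2 rest on few reads. Bdkrb1 had 9 and 9 reads in GFP osteogenic libraries against 20 and 20 in GFP growth libraries, and Agt had 5 and 3 against 31 and 10. Calcrl, the receptor core for adrenomedullin and calcitonin gene-related peptide, moved the other way, with 102 and 105 normalized counts in GFP osteogenic libraries against 33.8 and 38.5 in GFP growth libraries. In THOC5 osteogenic libraries Calcrl had 24.5 and 15.0. Its call in the GFP response (limma adjusted p = 0.00867) was lost without GFP osteogenic replicate 1 (0.0783) or 2 (0.0630) and without the variance trend (0.0695). S1pr3, a sphingosine 1-phosphate receptor, was 1.88 ± 0.40 higher in THOC5 than in GFP cells in osteogenic medium (limma adjusted p = 0.00602), a call lost without THOC5 osteogenic replicate 1 (0.0594) or 2 (0.0616), and in the GFP medium response it was at -1.22 ± 0.40 and missed the threshold (limma adjusted p = 0.0515). S1pr3 rests on few reads too, with 13 and 5 in GFP osteogenic libraries. It had 33 and 30 reads in THOC5 osteogenic libraries and 15 and 14 in GFP growth libraries.

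Of the other RGS genes tested, 1 of 12 rose and 1 fell in the GFP medium response, against 10.3% and 10.6% of all genes. These were Rgs17 at 0.74 ± 0.11 and Rgs3 at -0.62 ± 0.15, with a list median of 0.08. Those 2 genes were also the ones called between THOC5 and GFP cells in osteogenic medium, at -0.86 ± 0.11 for Rgs17 and 0.58 ± 0.15 for Rgs3. Of all genes 10.7% were lower and 11.3% higher there. Calls in this list were thus about as frequent as over all genes, and the 2 names were chosen after the values were seen.

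Among 22 other cGMP signalling genes 7 fell and 3 rose in the GFP medium response, against 10.6% and 10.3% of all genes. In osteogenic medium 7 were higher and 3 lower in THOC5 than in GFP cells, against 11.3% and 10.7% of all genes. Nos2, the inducible nitric oxide synthase, had 1370.3 and 1095 normalized counts in THOC5 osteogenic libraries against 182 and 276 in GFP osteogenic libraries, a log2 difference of 2.45 ± 0.50 (limma adjusted p = 0.00502). That call was lost without THOC5 osteogenic replicate 1 (0.0734) or 2 (0.0592), without GFP osteogenic replicate 1 (0.0850) and without the variance trend (0.0936). In growth medium the Nos2 values were 392 and 1181 for THOC5 cells, and 627 and 1864 for GFP cells, so the replicates of a group differed there more than the groups did. Abcc4, a transporter that carries cyclic nucleotides out of cells, rose in GFP cells to 1291 and 1165 in osteogenic medium against 367 and 396 in growth medium, and had 377 and 376 in THOC5 cells in osteogenic medium. Of 17 other phosphodiesterases 2 rose and 2 fell in the GFP medium response, near the shares of 10.3% and 10.6% over all genes, with a median of 0.29.

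**Figure D4:**
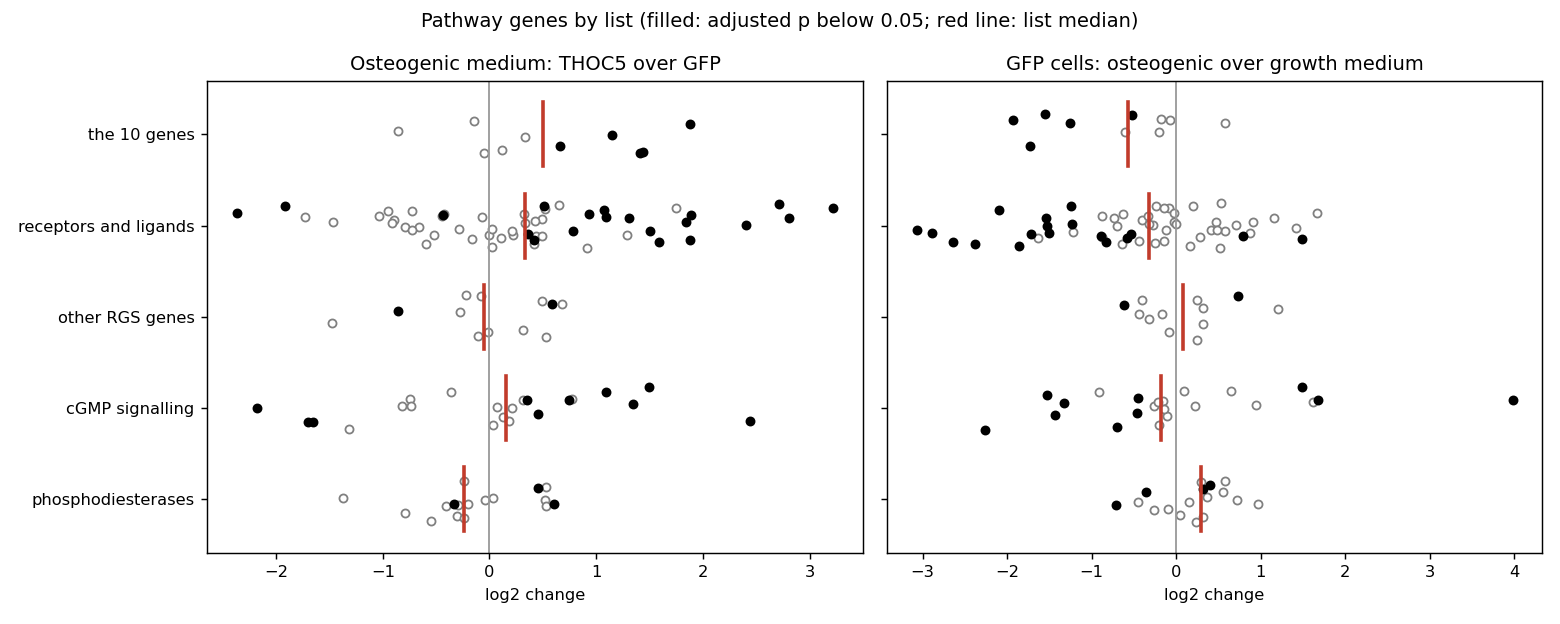
Log2 change (x axis) of the 10 genes and of the 4 lists of other pathway genes (rows) for THOC5 over GFP cells in osteogenic medium (left) and for osteogenic over growth medium in GFP cells (right); points are genes, filled where the adjusted p was below 0.05, and red lines are medians of the genes tested. The 10 genes have medians of 0.50 and -0.57, the receptor and ligand list 0.33 and -0.33, and the phosphodiesterase list -0.23 and 0.29.

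For each of the 7 members averaging at least 20 normalized counts, the 2 genes with the nearest profile were found among 11336 genes, by the root mean square difference of log2 values centred on each gene's mean over the 8 libraries. The nearest to Rgs5 were the matrix genes Fn1, fibronectin, and Col1a1, collagen I, at 0.114 and 0.115 log2 units. Fn1 had 54292 and 68554 normalized counts in GFP osteogenic libraries against 158197 to 211874 in the other 6. Rgs4 was nearest to Cdhr1 (0.0932) and to Tgfbi, a matrix protein induced by TGF-beta (0.0995). Prkg1 was nearest to Neb (0.0828) and Kcnmb1, the beta subunit of the large-conductance potassium channel (0.0861), and Pde3a to C4bp (0.0693) and Pcdhgb6 (0.0962). Ednra was nearest to Tns2 (0.0404) and Bbs9 (0.0571), Pde5a to Cep63 (0.0471) and Wars2 (0.0555), and Rgs2 to Zfp101 (0.0952) and Prdm9 (0.101). Profiles that vary little can lie close to many genes, and Rgs2 and Pde5a varied by 0.194 and 0.189 log2 units around their own mean, against 0.841 for Rgs4. Among the members themselves the nearest pairs were Ednra with Pde5a (0.165), Rgs5 with Rgs4 (0.187), Rgs5 with Prkg1 (0.195) and Prkg1 with Pde3a (0.200).

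**Figure D5:**
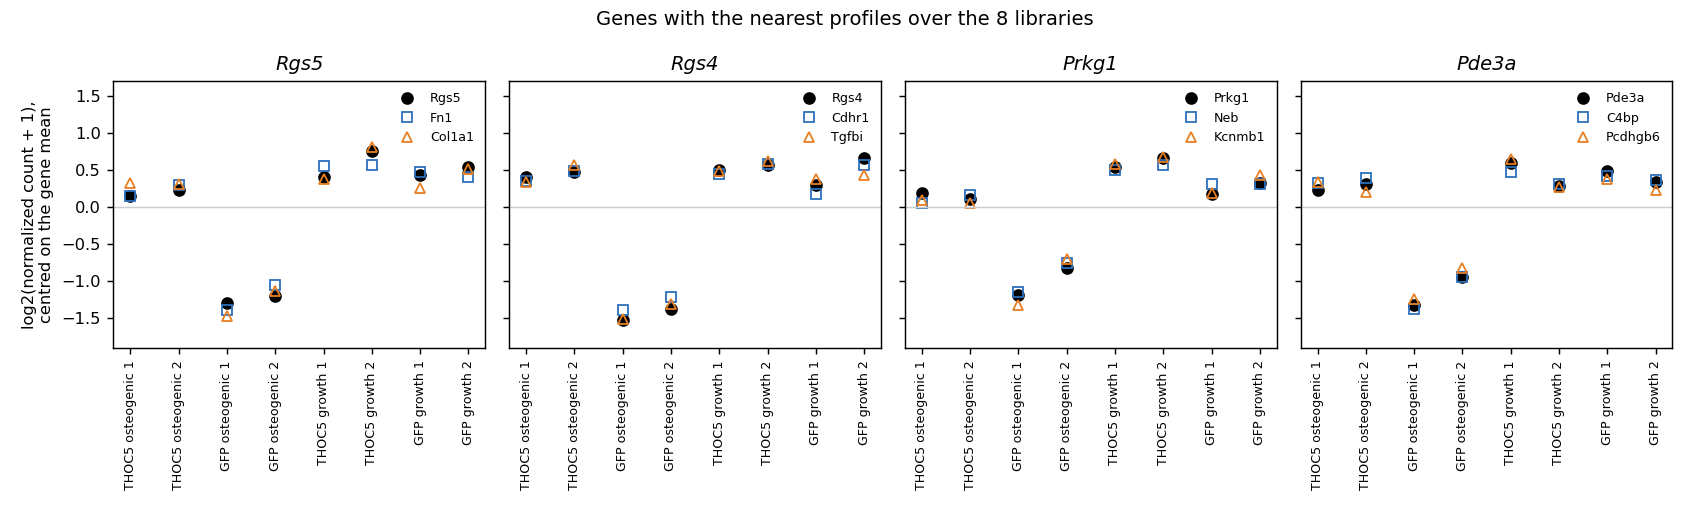
Centred log2 of the normalized count plus 1 (y axis) in each of the 8 libraries (x axis) for Rgs5, Rgs4, Prkg1 and Pde3a (filled circles) and the 2 genes nearest to each (open squares and triangles). In each panel the 2 GFP osteogenic libraries are below 0 and the other 6 are above 0.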

How the data were processed

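The authors deposited a table of normalized counts for 8 libraries, here treated as a signal, and in the same table a log2 fold change, its standard error and test statistic (a score), and p-values for 4 comparisons, per the file headers. Multiplying each deposited value by its library's size factor gave whole reads for 100% of values (within 1e-06), and on those recovered reads edgeR called 4814 genes in the GFP medium response and 5401 in THOC5 against GFP cells in osteogenic medium. FastQC, Bowtie2, MACS2, SAMtools and mm10 are named without roles, per the submitters' processing notes. No source used here states the counting tool or annotation. Libraries were made with an unstranded TruSeq V2 kit, named per the labels' protocols. RNA immunoprecipitation sequencing of the study was not analysed here.

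Groups and columns follow the labels' titles and description fields, and 0 per-sample columns went unused. limma 3.58.1 (R 4.3.3, trend option) was fitted to log2(normalized count + 1), with 4 group means, no block and 4 residual degrees of freedom, for genes reaching 1 in 2 or more libraries. This scale understates fold changes of low genes. The members, pathway lists, markers and tests were chosen with earlier results of these data known. Named genes are the members, Thoc5, in each contrast up to 6 called pathway genes with the largest change and a mean of at least 20, and the 2 nearest profiles of each member with such a mean, and other genes named are said to be chosen after their values were seen, stand among the marker lists or, for Gucy1a1 and Gucy1a2, pair with a member. edgeR 4.0.16 and DESeq2 1.42.0 were alternatives on recovered reads, beside other scalings, filters, pseudocounts, a replicate block, a fit of the compared libraries alone and leaving out each library. The fit was tested on simulated data. A further pathway list is not reported here. Lengths are union exons of GENCODE M21 (GRCm38), in which 26459 symbols were found, and promoters are from RefSeq (GRCm38.p6). At the reads per library, 3 reads correspond to 2.59 to 3.99 normalized counts, which covers counting error only.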

Additional observations from a re-analysis of the deposited data

Results flagged for a closer look

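The medium responses of THOC5 and GFP cells differed by the interaction test for 4 of the 10 genes. Of the 106 other pathway genes tested, the interaction was called above 0 for 15 and below 0 for 5. Listed with the 4 are the 6 of those with the largest difference and a mean of at least 20 normalized counts. The log2 difference between the responses, THOC5 minus GFP, was 1.8357 for Rgs4, 1.3424 for Rgs5, 1.3825 for Pde3a and 0.8073 for Prkg1. Nos2 differed by 3.1125 (limma adjusted p = 0.0204), with growth libraries that ranged from 392 to 1864 normalized counts. Avpr1a differed by 2.7194 (limma adjusted p = 0.00141), Agt by 2.3176 (limma adjusted p = 0.0437) and Bdkrb1 by 1.6378 (limma adjusted p = 0.0277). The difference was negative for Calcrl, at -1.7476 (limma adjusted p = 0.0428), and for Abcc4, at -1.4765 (limma adjusted p = 0.000287). All 10 differences listed rest on the same 2 GFP osteogenic libraries. For 4 of the other named genes the call was lost under many of the settings tried. Agt lost it in 10 of 17, among them leaving out any library except GFP growth replicate 2 (adjusted p = 0.0958 to 0.200). Calcrl lost it in 9 of 18, among them leaving out any library except THOC5 growth replicate 2 (0.0676 to 0.200). Nos2 lost it in 8 of 18, among them leaving out any library except THOC5 growth replicate 2 and GFP growth replicate 1 (0.0509 to 0.135). Bdkrb1 lost it in 6 of 17, which are those without any library except GFP osteogenic replicate 2 and GFP growth replicate 1 (0.0634 to 0.128). Prkg1 lost it in 7 of 18, among them leaving out either THOC5 osteogenic replicate (0.0988 and 0.0979), GFP osteogenic replicate 1 (0.0683), THOC5 growth replicate 1 (0.0829) or GFP growth replicate 2 (0.0645). Without the variance trend Rgs5, Pde3a and Avpr1a lost it too, and Rgs4 and Abcc4 kept it under every setting. Ptger3, with a smaller difference of 1.2543, was also called (limma adjusted p = 0.00348). It lost the call only without the variance trend (0.0896).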

How the results depend on the processing

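Over 921 recomputed results of the members, 877 kept direction and side of the threshold, 19 lost and 2 gained a call, and 23 changed sign, of values near 0 that passed the test neither before nor after. For the other named genes the numbers were 843, 770, 54, 11 and 8. Without limma's variance trend the interaction called 1 member, and genes called were 2154 in the GFP response (4698 with the trend), 11 in the THOC5 response (122), 2200 for THOC5 against GFP cells in osteogenic medium (4963), 99 in growth medium (1) and 172 for the interaction (2082). Without the filter on low values they were 37 in the THOC5 response, 0 in growth medium and 1122 for the interaction. In growth medium edgeR called 4 genes and the fit of the 4 compared libraries 0. Leaving out each library in turn gave 4 to 5 members and 2250 to 4577 genes in the GFP response (fewest without GFP osteogenic replicate 1), 0 members and 14 to 124 genes in the THOC5 response (fewest without THOC5 osteogenic replicate 1), 4 to 5 members and 2014 to 5079 genes for THOC5 against GFP cells in osteogenic medium (fewest without THOC5 osteogenic replicate 2), 0 members and 0 to 1 genes in growth medium, and 3 to 4 members and 372 to 1938 genes for the interaction (fewest without THOC5 osteogenic replicate 2). The causes were not tested. Scaling to library totals moved the median of all genes by 0.14 in the GFP response, -0.17 between THOC5 and GFP cells in osteogenic medium and -0.11 in the interaction. Genes called higher and lower were then 3721 and 1688 (2314 and 2384 with the authors' factors), 1662 and 4066 (2550 and 2413), and 886 and 1382 (1197 and 885), while every called member kept its direction. Under that scaling Rgs2 was at 0.074 in the GFP response and -0.053 between THOC5 and GFP cells in osteogenic medium, Rgs4 and Pde3a at -0.016 and -0.039 in growth medium, and Pde5a at -0.0051 in the interaction. A filter on a mean of at least 10 leaves out Ednrb and Agtr1a.

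Leaving out a library in turn, the uncalled values that changed sign ranged, in the GFP response, from -0.30 to 0.16 for Rgs2 and -0.56 to 0.14 for Ednrb, and in the THOC5 response from -0.23 to 0.075 for Pde5a, -0.21 to 0.40 for Thoc5, -0.24 to 0.12 for Agt, -0.74 to 0.23 for Calcrl and -0.16 to 0.31 for S1pr3. Between THOC5 and GFP cells in osteogenic medium they ranged from -0.11 to 0.35 for Rgs2, -0.50 to 0.20 for Ednrb and -0.14 to 0.038 for Agtr1a. In growth medium they ranged from -0.078 to 0.27 for Rgs5, -0.14 to 0.23 for Rgs4, -0.17 to 0.027 for Ednra, -0.13 to 0.18 for Pde3a, -0.30 to 1.08 for Agt and -1.46 to 0.13 for Nos2, and for the Pde5a interaction from -0.044 to 0.26.

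Replicate numbers are shared by the 4 groups. Correlations of same-numbered libraries' deviations from their group means, over 12037 genes, lay between -0.161 and 0.347. The highest was that of the THOC5 and GFP growth groups, and the next was 0.0907, for the GFP osteogenic and GFP growth groups. Across genes, growth libraries numbered 1 had a Pearson correlation of 0.9940 and those numbered 2 one of 0.9908. Libraries of the same group had 0.9899 for THOC5 and 0.9897 for GFP cells in growth medium. The numbers were not taken as pairs in the main fit, and a pairing within growth medium alone was not tested. The fit with the replicate block called 5, 0, 5, 0 and 4 members, and 4723, 123, 4948, 1 and 2238 genes, in the order GFP response, THOC5 response, osteogenic medium, growth medium and interaction, and changed no call of a member. With 2 libraries a group, and under 10 reads for Ednrb and Agtr1a, the depth limits what can be said of those receptors.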

Other observations

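Further genes of the pathway are given here that were chosen after their values were seen. Prkg2, the type II cGMP-dependent kinase, had 204 and 186 normalized counts in THOC5 osteogenic libraries, 740.3 and 509 in GFP osteogenic libraries, 212 and 168 in THOC5 growth libraries, and 223 and 214 in GFP growth libraries. It rose by 1.49 ± 0.17 on the log2 scale in GFP cells in osteogenic against growth medium (limma adjusted p = 0.000142), where Prkg1 fell. Mrvi1, the partner through which cGMP-dependent kinase I acts on the inositol trisphosphate receptor, was at -1.53 ± 0.13 in that comparison (limma adjusted p = 1.98e-05). Of the large-conductance potassium channel, Kcnma1, the pore subunit, had 5.45 and 7.51 normalized counts in THOC5 osteogenic libraries against 38.1 and 27.7 in GFP osteogenic libraries (limma adjusted p = 0.0341). Kcnmb1, its beta subunit, had 27.3 and 26.3 in THOC5 osteogenic libraries against 9.51 and 15.2 in GFP osteogenic libraries (limma adjusted p = 0.0206). Npr3, the natriuretic peptide clearance receptor, fell in GFP cells by 1.44 ± 0.12 in osteogenic against growth medium (limma adjusted p = 2.09e-05).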
